A study of Homo sapiens with 16 samples.

Results

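The early genes of the EGR, NR4A, IER and ARC group were read in U2OS cells, an established human osteosarcoma line, through 10 gene symbols: EGR1, EGR2, EGR3, NR4A1, ARC, IER2, IER3, IER5, IER5L and SRF. All 10 symbols were found among 25270 genes of 1 expression matrix, and they were chosen by name, with earlier results of these data known. The cells had been treated for 6 h with T5, T4 or CPT, each at 0.5, 2, 5, 10 and 20 µM, or with the solvent DMSO. The labels describe T4 and T5 as modulators of alternative polyadenylation, and all groups share the line, the solvent and the time. There was 1 library of messenger RNA for each of the 16 conditions, DMSO included, so no condition had a replicate. A dose trend or a difference held across doses is therefore judged against the scatter of single libraries around the fit. Values are FPKM, fragments scaled to transcript length and to the mapped fragments of the library, which sum to 238669 to 285143 per library.

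Immediate early genes are transcribed within minutes of a stimulus without new protein synthesis, and their messages usually decay quickly. Growth factor, calcium and stress signals reach many of them through the kinase ERK and the factors SRF and CREB, which bind their promoters. EGR1, EGR2 and EGR3 are zinc finger transcription factors, NR4A1 is an orphan nuclear receptor, and ARC encodes a capsid-like protein known for its role at synapses. IER2, IER3, IER5 and IER5L are small proteins named for their immediate early response, and SRF is the factor that binds the CArG box, also called the serum response element.

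Of the 7 listed osteoblast or osteosarcoma markers, 6 had a median of at least 1 FPKM, with summed levels of 892.8 to 1538 FPKM. The same held for 2 of 5 epithelial, 2 of 3 neuronal, 0 of 5 blood and 0 of 3 endothelial markers. Most of the bone sum came from COL1A1, VIM and SPARC, with medians of 483, 455 and 351 FPKM. RUNX2 and ALPL had medians of 1.17 and 1.67 FPKM, against 1.67 FPKM for the epithelial EPCAM and 3.77 FPKM for the neuronal SNAP25. COL1A2, a collagen of bone, had a median of 0.085 FPKM. Summed levels were 0.0485 to 1.89 FPKM for 5 blood markers, 0.11 to 0.244 FPKM for 3 endothelial markers, 2.37 to 4.79 FPKM for 5 epithelial markers and 5.99 to 9.08 FPKM for 3 neuronal markers. Depth relative to DMSO, read from the smallest steps in the values, ran between 0.639 at 5 µM T5 and 0.997 at 0.5 µM T5, and its part in the results was not tested. In bulk RNA, fewer cells of a type and less RNA per cell cannot be told apart, and FPKM holds no measure of total RNA.

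Promoters are shown for the members whose upstream sequence holds 1 of 2 known elements, as a description of their sequence. A link between these elements and the dose responses was not tested. The 250 bases upstream of each start annotated by RefSeq on GRCh38.p14 were read for 7 members, in 11 windows, and searched on both strands. The CArG box was present in 3 of the 11 windows, 1 each of EGR1, EGR2 and SRF, against 1.16% of all 35116 promoter windows. The EGR1 and SRF windows each had 2 boxes, which 0.0313% of windows had. The stretches below run 5′ to 3′ on the gene's strand and lie upstream of the start. Capitals mark the CArG boxes, on chr5:138465354-138465425 (+) for EGR1, chr10:62816408-62816457 (−) for EGR2 and chr6:43171219-43171268 (+) for SRF.
EGR1: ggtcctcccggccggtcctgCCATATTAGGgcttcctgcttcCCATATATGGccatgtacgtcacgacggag
EGR2: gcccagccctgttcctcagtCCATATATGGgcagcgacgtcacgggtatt
SRF: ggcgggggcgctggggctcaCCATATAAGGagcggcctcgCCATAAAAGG
The EGR1 stretch reaches from 125 to 54 bases before the start. The EGR2 box was present at 1 of 3 annotated starts and the SRF boxes at 1 of 2. None of the windows of NR4A1, IER2, IER5 and IER5L held a CArG box. Only the exact form CCWWWWWWGG, W being A or T, was counted. Sites with a mismatch or farther upstream were not searched.

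IER5 and its relative IER5L instead each held the letters GAANNTTC, a core of the heat shock element, in their 1 window, against 5.78% of all windows. That motif was chosen after these promoters had been read. The stretches lie on chr1:181088454-181088501 (+) for IER5 and chr9:129178446-129178493 (−) for IER5L, and capitals mark the motif.
IER5: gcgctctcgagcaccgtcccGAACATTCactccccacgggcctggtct
IER5L: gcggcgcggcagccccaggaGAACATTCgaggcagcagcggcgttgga
The letters TGACG, part of the element bound by CREB, were present in 4 of the 11 windows, 1 each of EGR1, EGR2, SRF and IER2, against 21.2% of all windows. The ETS core CCGGAA was also present in 4 of the 11 windows, 1 each of IER5, SRF, NR4A1 and IER2, against 14.5% of all windows. A match is a description of the letters and does not show binding. The promoters of ARC, EGR3 and IER3 were not analysed here.

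EGR1, a growth factor and stress responsive transcription factor, was the most abundant of the members, at 483 FPKM with 20 µM T5. It stood at 13.8 FPKM with DMSO, and with T5 at 29.1, 146, 322, 429 and 483 FPKM at 0.5, 2, 5, 10 and 20 µM. With T4 it had 17.0, 74.0, 163, 271 and 332 FPKM at the same doses. With CPT it had 13.0, 32.3, 49.4, 57.5 and 56.6 FPKM. Each step of T5 and of T4 was thus higher than the step before it, while CPT was below DMSO at 0.5 µM and level between 10 and 20 µM. In order of abundance, EGR1 was the 69th gene of the matrix at 20 µM T5, the 98th at 20 µM T4, the 1026th at 20 µM CPT and the 3740th with DMSO.

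A dose trend was fitted to log2(FPKM + 1) in the 5 libraries of a compound and DMSO, over 10600 genes with a mean of at least 1 FPKM. The value given is the fitted change between 0 and 20 µM with its standard error. A gene was called when limma's adjusted p after Benjamini and Hochberg was below 0.05. EGR1 rose by 5.39 ± 0.58 with T5 (limma, adjusted p = 0.0013), by 5.02 ± 0.39 with T4 (adjusted p = 0.00121) and by 2.37 ± 0.34 with CPT (adjusted p = 0.0105). Its fitted rise was the 7th of all tested genes with T5 and also with T4, and the 48th with CPT.

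EGR2, the relative of EGR1 known from hindbrain and Schwann cells, followed EGR1 at a far lower level. Its value was 0.182 FPKM with DMSO, and with T5 0.67, 2.43, 4.48, 5.03 and 4.85 FPKM from the lowest dose to the highest. T4 gave 0.332, 1.29, 2.63, 3.85 and 4.10 FPKM. CPT gave 0.417, 0.754, 1.49, 2.40 and 3.10 FPKM. All 15 treated libraries were above DMSO, and at 0.5 µM CPT was above T4. The fitted rise was 2.54 ± 0.35 with T5 (limma, adjusted p = 0.00234), 2.38 ± 0.21 with T4 (adjusted p = 0.00121) and 1.86 ± 0.15 with CPT (adjusted p = 0.0103).

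EGR3, another factor of the family, differed from both in the place of CPT. It had 0.208 FPKM with DMSO, and with T5 0.447, 1.05, 1.17, 1.11 and 0.732 FPKM. With T4 it had 0.234, 0.638, 0.695, 0.534 and 0.463 FPKM, and with CPT 0.739, 1.08, 1.45, 1.71 and 1.62 FPKM. CPT was thus the highest at each of the 5 doses, and T5 and T4 were highest at 5 µM. The mean of EGR3, 0.868 FPKM, was below the filter, so its test comes from a fit to 20739 genes above 0 in a library. EGR3 rose by 1.10 ± 0.20 with CPT (limma, adjusted p = 0.0297), in a fit where 8.88% of genes were called rising. Its trend of 0.64 ± 0.29 with T5 (adjusted p = 0.175) and of 0.36 ± 0.18 with T4 (adjusted p = 0.228) was not called. The ratio of EGR3 to EGR2 in FPKM was 0.151 with T5, 0.113 with T4 and 0.521 with CPT at 20 µM, and 1.14 with DMSO.

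NR4A1, also known as NUR77, was like EGR3 in the place of CPT. It had 3.49 FPKM with DMSO, and with T5 4.76, 9.04, 14.8, 18.4 and 20.6 FPKM. T4 gave 3.83, 7.60, 8.65, 8.80 and 6.67 FPKM. CPT gave 12.5, 20.2, 23.6, 26.3 and 27.1 FPKM. The lowest CPT dose was thus above all 5 T4 libraries, and CPT was highest at each dose. NR4A1 rose by 2.45 ± 0.20 with T5 (limma, adjusted p = 0.000996), by 1.04 ± 0.35 with T4 (adjusted p = 0.0482) and by 2.35 ± 0.52 with CPT (adjusted p = 0.0168). The T4 call is close to the threshold and was lost in 8 of 13 alternative fits, among them those without DMSO (0.83) and without 0.5 µM (0.89), 5 µM (0.98) or 10 µM T4 (0.96). Here and below, the 13 fits of a trend count the fit without DMSO also as the fit to treated libraries alone.

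**Figure D1:**
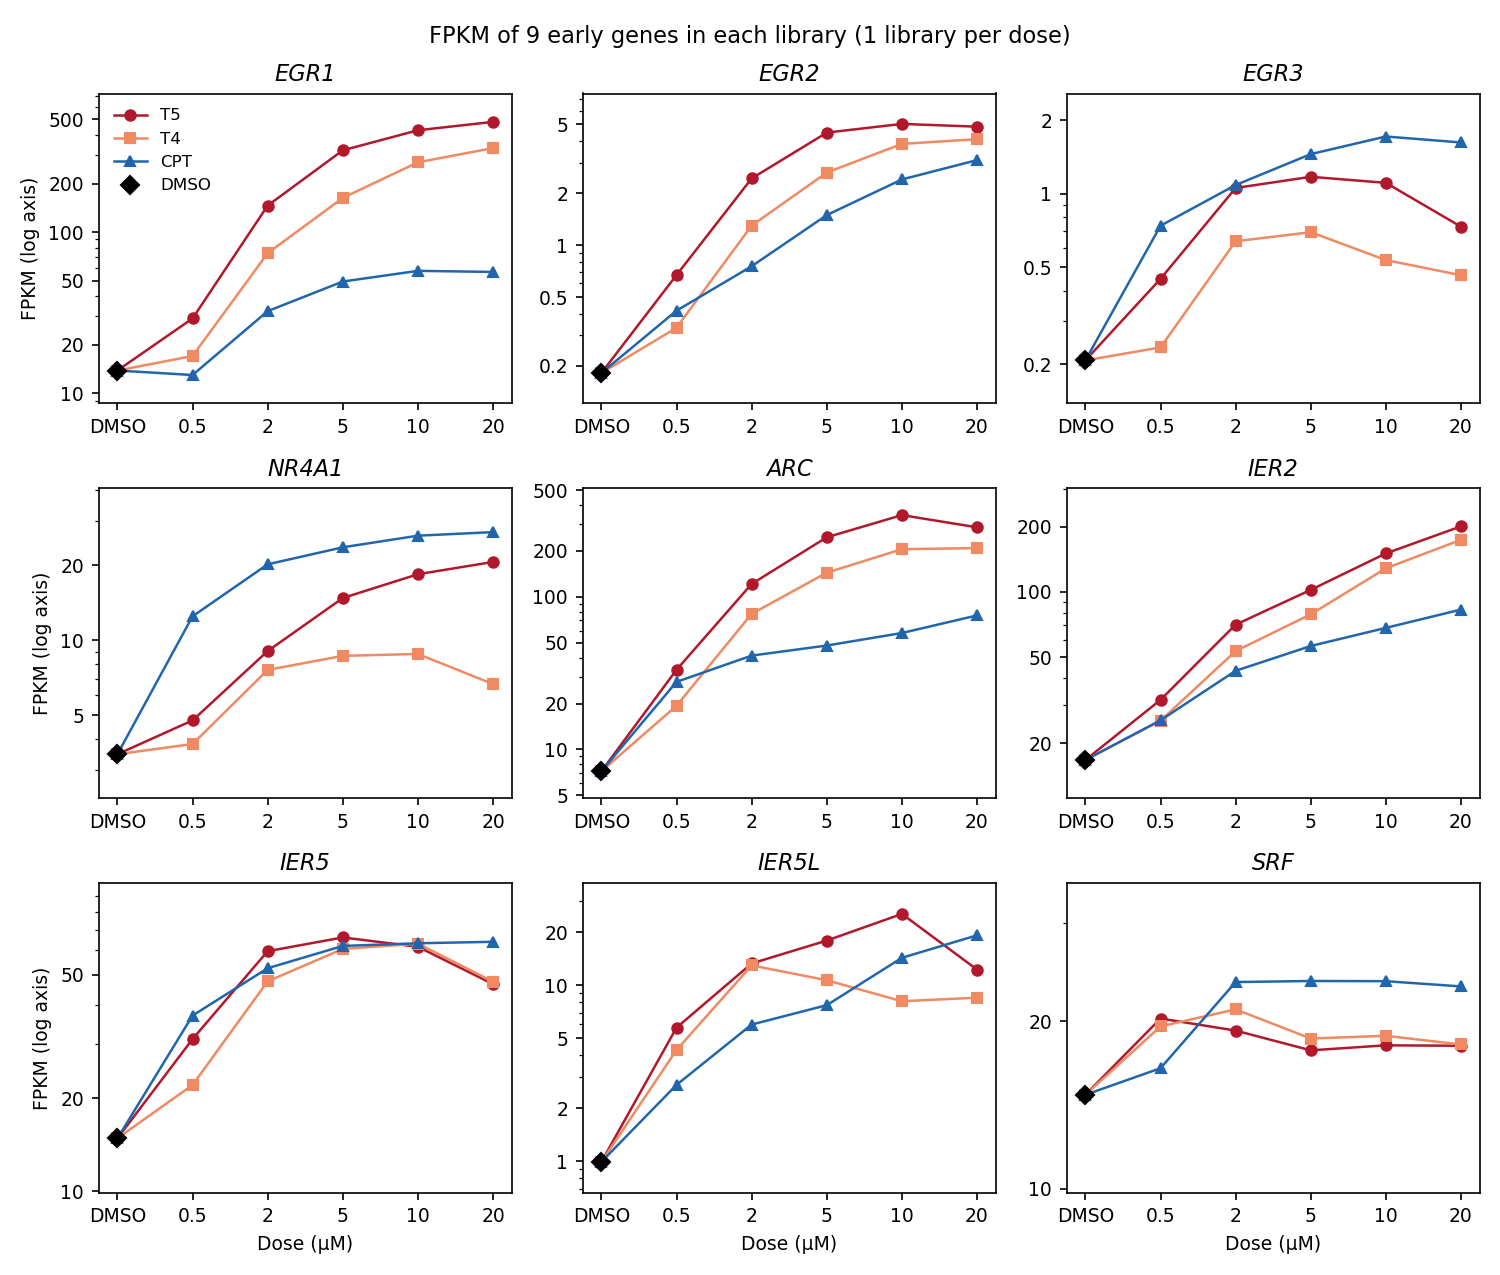
FPKM (log axis) of 9 members against dose (µM, evenly spaced steps), 1 library per point, one panel per gene, with T5, T4 and CPT as separate lines starting from the same DMSO library. EGR1 reaches 483 FPKM with T5, 332 FPKM with T4 and 57.5 FPKM with CPT, whereas NR4A1 and EGR3 are highest with CPT at every dose.

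The ratio of EGR1 to NR4A1 sets these genes against each other inside each library, where scaling of the library cancels. The ratio was 3.97 with DMSO, and with T5 6.11, 16.2, 21.8, 23.3 and 23.5 from 0.5 to 20 µM. It was 4.44, 9.74, 18.9, 30.8 and 49.8 with T4. It was 1.04, 1.60, 2.09, 2.19 and 2.09 with CPT. The T5 and T4 ratios all lay above the DMSO ratio and the CPT ratios all lay below it, with no overlap. The share of all gene pairs that separate in this way was not computed. The ratio of ARC to NR4A1 also lay above DMSO with T5 and T4, but with CPT it lay around DMSO. That ratio was 2.07 with DMSO, and 2.22, 2.04, 2.03, 2.21 and 2.78 with CPT from 0.5 to 20 µM. T4 gave the higher ratio than T5 at 10 and 20 µM, where NR4A1 was low with T4.

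**Figure D2:**
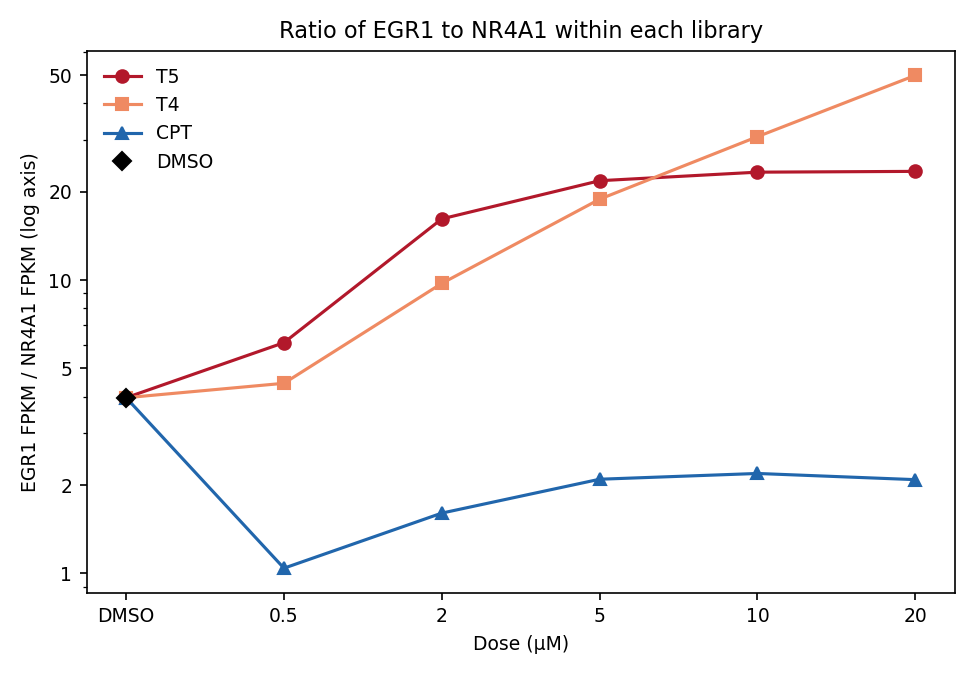
Ratio of EGR1 to NR4A1 in FPKM within each library, on a log axis, against dose (µM), with the DMSO library for reference. T5 and T4 lie above the DMSO ratio of 3.97 at every dose and CPT lies below it.

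ARC, best known from neurons, was strongly present in these bone tumour cells. It had 7.20 FPKM with DMSO, and with T5 33.3, 121, 245, 343 and 285 FPKM. T4 gave 19.3, 77.3, 144, 205 and 208 FPKM. CPT gave 27.7, 41.2, 47.9, 57.9 and 75.5 FPKM. ARC was above DMSO in all 15 treated libraries, and its highest value, at 10 µM T5, was 47.6 times that of DMSO. At that dose it was the 115th gene in order of FPKM, against the 5983rd with DMSO. It rose by 5.23 ± 0.79 with T5 (limma, adjusted p = 0.003), by 4.89 ± 0.55 with T4 (adjusted p = 0.00157) and by 2.74 ± 0.51 with CPT (adjusted p = 0.0124). The 3 neuronal markers, by contrast, summed to at most 9.08 FPKM in any library.

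IER2, a nuclear protein of the immediate early response, had the T4 trend with the smallest error of the 8 tested members. It had 16.7 FPKM with DMSO, and with T5 31.7, 70.5, 102, 150.5 and 201 FPKM. T4 gave 25.4, 53.3, 78.7, 128 and 174 FPKM, and CPT gave 25.5, 43.2, 56.2, 68.2 and 82.8 FPKM. Every dose step of every compound was higher than the one before it. IER2 rose by 3.49 ± 0.21 with T5 (limma, adjusted p = 0.000865), by 3.38 ± 0.12 with T4 (adjusted p = 0.000426) and by 2.23 ± 0.17 with CPT (adjusted p = 0.00862). The T4 call was kept in all 13 alternative fits.

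IER5, which binds the heat shock factor HSF1 and a phosphatase, was nearly alike in height with all 3 compounds. It had 14.8 FPKM with DMSO, and with T5 31.0, 59.7, 66.1, 61.6 and 46.7 FPKM. T4 gave 22.0, 47.7, 60.6, 63.1 and 47.5 FPKM, and CPT gave 36.9, 52.5, 62.0, 63.3 and 64.0 FPKM. The highest values were 66.1 FPKM with T5, 63.1 FPKM with T4 and 64.0 FPKM with CPT. At 20 µM, T5 and T4 were below their own values at 10 µM and CPT was not. The fitted rise was 1.61 ± 0.55 with T5 (limma, adjusted p = 0.0477), 1.86 ± 0.44 with T4 (adjusted p = 0.0145) and 1.81 ± 0.43 with CPT (adjusted p = 0.0193). The T5 call was lost in 9 of 13 alternative fits, among them those without DMSO (0.68) and without 0.5 µM (1.68), 5 µM (1.51) or 10 µM T5 (1.57). The T4 call was lost in 6, among them those without DMSO (1.36) and without 0.5 µM (1.77) or 10 µM T4 (1.77).

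IER5L, the paralogue of IER5, was scarce with DMSO at 0.992 FPKM and had a different course with each compound. With T5 it had 5.75, 13.3, 18.0, 25.5 and 12.3 FPKM. With T4 it had 4.29, 13.0, 10.7, 8.12 and 8.51 FPKM, and with CPT 2.72, 5.99, 7.71, 14.3 and 19.2 FPKM. T4 was highest at 2 µM, T5 at 10 µM and CPT at 20 µM. IER5L rose by 2.88 ± 0.81 with T5 (limma, adjusted p = 0.0245) and by 3.26 ± 0.23 with CPT (adjusted p = 0.00862). Its T4 trend of 1.95 ± 0.75 was not called (adjusted p = 0.0709), with an interval of 0.16 to 3.74 at 95% confidence. It was called with library medians set equal (2.59, adjusted p = 0.0206), with quantile normalization (2.47, adjusted p = 0.040) and without 2 µM T4 (2.10, adjusted p = 0.0211). The T5 call was lost without DMSO (1.51), without 0.5 µM T5 (3.09) and without 10 µM T5 (2.61). IER5L had the largest CPT rise of the 8 tested members, the 19th among all tested genes.

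IER3, which modulates ERK signalling and cell death, was listed at 0 in all 16 libraries and gives no measurement. Of the 20 protein-coding genes nearest to it in the RefSeq order on chromosome 6, 18 were in the matrix, and all 18, TUBB and FLOT1 among them, were also listed at 0 in every library. TUBB encodes a tubulin that dividing cells use, so the 0 of IER3 is read here as a missing value.

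SRF, whose product binds the CArG boxes shown above, had the narrowest range of the members. It had 14.8 FPKM with DMSO, and with T5 20.2, 19.2, 17.7, 18.1 and 18.1 FPKM. T4 gave 19.6, 21.0, 18.6, 18.8 and 18.2 FPKM, and CPT gave 16.5, 23.5, 23.6, 23.6 and 23.1 FPKM. All 15 treated libraries were above DMSO, T5 was highest at 0.5 µM, and CPT was level from 2 µM on. SRF rose by 0.66 ± 0.19 with CPT (limma, adjusted p = 0.0343), a call lost in 8 of 13 alternative fits, among them those without DMSO (0.50), 0.5 µM CPT (0.61) or 5 µM CPT (0.64). Its change of 0.11 ± 0.18 with T5 (adjusted p = 0.613, interval −0.31 to 0.54) and of 0.16 ± 0.19 with T4 (adjusted p = 0.513, interval −0.29 to 0.61) was not called. With the median of every library set equal, both were called, at 0.78 ± 0.22 with T5 (adjusted p = 0.0182) and 0.80 ± 0.20 with T4 (adjusted p = 0.0124).

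Of the 8 members that passed the filter, 7 rose with T5, 6 with T4 and 8 with CPT, and none fell with any compound, also at an unadjusted p below 0.05. EGR2 (0.182 FPKM) and IER5L (0.992 FPKM) were below 1 FPKM with DMSO, so they passed the filter only through treated libraries. Among all tested genes, 18.2% were called rising with T5, 14.5% with T4 and 17.9% with CPT. The members were chosen with earlier results of these data known, so these shares are given for scale and are no independent test. The shares called falling were 34.5% with T5, 32.4% with T4 and 25.8% with CPT. The median fitted change of the members was 2.71 with T5, 2.16 with T4 and 2.29 with CPT, against medians over all tested genes of −0.29, −0.27 and −0.14 in the same order of compounds. With library medians set equal, the medians over all genes became 0.38, 0.38 and 0.31. In that scaling 8 members rose with each compound, SRF with T5 and T4 included, against 41.4%, 40.5% and 33.7% of all genes. With quantile normalization 6 members rose with T5, 7 with T4 and 8 with CPT, against 28.4%, 26.5% and 22.1% of genes. The CPT count depends on the 10 µM library: without it, 0 members were called rising, with 0.00943% of all genes. The fitted changes themselves moved little, from 2.37 to 2.30 for EGR1, 2.23 to 2.24 for IER2 and 3.26 to 3.20 for IER5L. The adjusted p of the members (limma) then lay between 0.0537 and 0.0991. Without any other single library 7 or 8 members were called rising with CPT. The share of all genes called rising then ran from 9.48%, without 0.5 µM, to 18.9%, without 2 µM. The counts also rest on the log scale of dose. With a linear dose 0 members rose with T5, 1 with T4 (IER2) and 0 with CPT, against 0.217%, 0.934% and 0% of all genes.

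The slopes themselves were compared with DMSO as the common start of both series. The slope was higher with T5 than with CPT for 4 of the 8 tested members, EGR1, ARC, IER2 and EGR2, and lower for 1, SRF, where 9.83% of all genes were called higher and 25.8% lower. It was higher with T4 than with CPT for the same 4 members and lower for NR4A1, where 16.9% of genes were called higher and 28.4% lower. Of these, the EGR2 call was lost with a pseudocount of 0.1. Between T5 and T4 the slope was called different for 0 members and 0% of genes, with 2 members, NR4A1 and IER2, higher at an unadjusted p below 0.05. With an intercept for each compound and no DMSO, IER2 alone had a called difference, in both comparisons with CPT. In those fits 2.54% of all genes were called higher and 6.19% lower for T5 against CPT, and 1.16% higher and 6.61% lower for T4 against CPT. The NR4A1 difference between T4 and CPT was then −0.44 (adjusted p = 0.73), against −2.07 with DMSO as the common start.

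**Figure D3:**
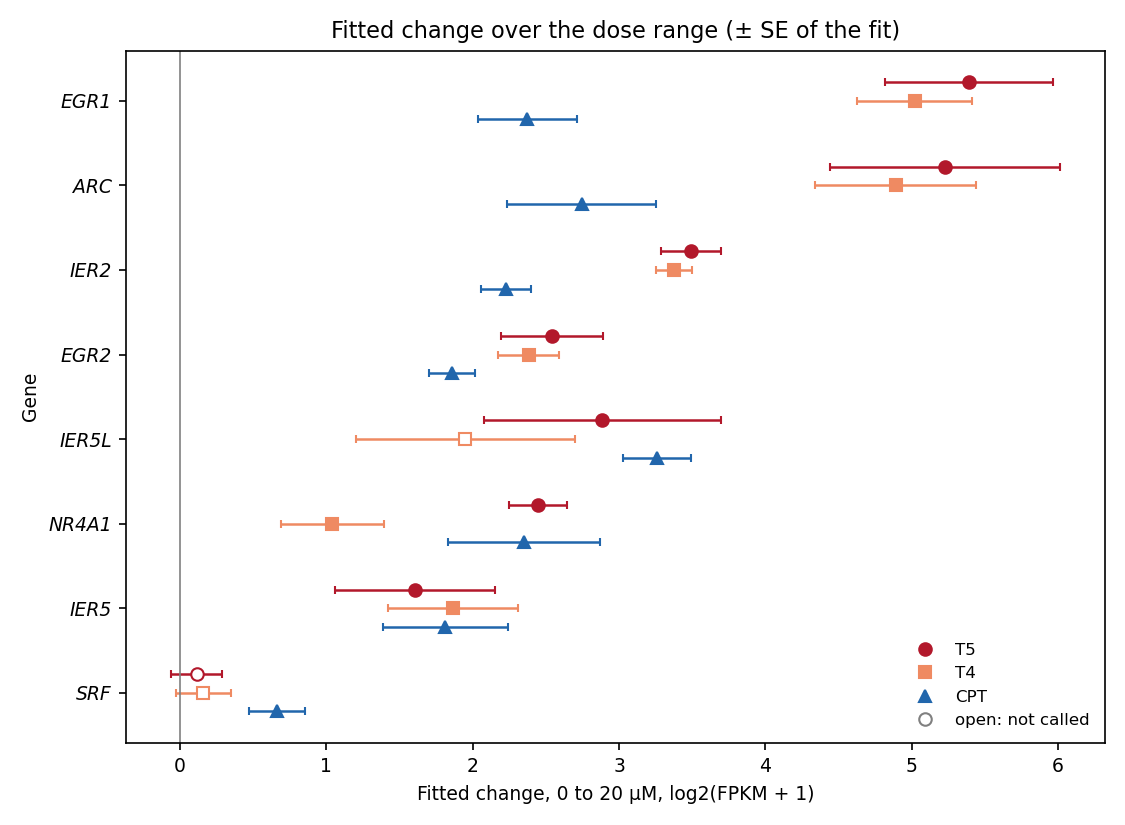
Fitted change in log2(FPKM + 1) between 0 and 20 µM for the 8 tested members, with standard errors, for T5, T4 and CPT, open symbols being not called. EGR1 and ARC lie near 5 with T5 and T4, and between 2 and 3 with CPT, while SRF is the lowest member with every compound.

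The compounds were next compared at matched doses, in 3 pairs, each fit holding the 10 libraries of the pair with dose as a block. T5 was set against T4 because the labels give both the same description. T5 was higher than T4 for 6 of the 8 tested members and lower for 0, against 6.05% of all genes called higher and 26.5% called lower. The difference was 0.78 ± 0.07 for EGR1 (limma, adjusted p = 0.00422), 0.73 ± 0.18 for NR4A1 (adjusted p = 0.0231) and 0.67 ± 0.05 for ARC (adjusted p = 0.00422). It was 0.62 ± 0.19 for IER5L (adjusted p = 0.0466), 0.40 ± 0.07 for EGR2 (adjusted p = 0.00825) and 0.30 ± 0.04 for IER2 (adjusted p = 0.00478). All 6 genes were higher with T5 at 5 of 5 doses. No member was lower with T5 at an unadjusted p below 0.05. With library medians set equal, T5 was higher for 7 members and 24.7% of all genes were called higher. With the spread taken from all 15 treated libraries, 1 member, NR4A1, was called higher, against 1.08% of all genes.

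IER5 and SRF did not differ detectably between T5 and T4. The difference was 0.17 ± 0.08 for IER5 (limma, adjusted p = 0.132), with an interval of −0.02 to 0.36, and was called with library medians set equal (0.27, adjusted p = 0.0371). For SRF it was −0.04 ± 0.04 (adjusted p = 0.394), with an interval of −0.12 to 0.04. In the fit to 20739 genes EGR3 was also higher with T5, by 0.32 ± 0.04 (adjusted p = 0.0186), at 5 of 5 doses, where 1.91% of genes were called higher. In that fit NR4A1 (limma, adjusted p = 0.0858) and IER5L (adjusted p = 0.141) were not called, so EGR3 does not add to the count above. The IER5L call was lost without 0.5, 5 or 20 µM (0.69, 0.60 and 0.66), and the NR4A1 call without 5 or 10 µM (0.74 and 0.67).

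Against CPT, T4 and T5 divided the members. T5 was higher than CPT for 4 of the 8 members and lower for 1, where 25% of all genes were called higher and 37.6% lower. The difference was 2.38 ± 0.28 for EGR1 (limma, adjusted p = 0.00064), 1.71 ± 0.32 for ARC (adjusted p = 0.00367), 0.85 ± 0.14 for IER2 (adjusted p = 0.00212) and 0.74 ± 0.14 for EGR2 (adjusted p = 0.00403). NR4A1 was lower with T5, by −0.76 ± 0.14 (adjusted p = 0.0033). Each of these 5 genes had the same order at 5 of 5 doses. EGR3 was lower with T5 than with CPT at 5 of 5 doses, though its difference of −0.28 ± 0.09 in the fit to 20739 genes was not called (adjusted p = 0.0617). IER5L (0.64 ± 0.25, interval 0.03 to 1.25, adjusted p = 0.0634), IER5 (−0.09 ± 0.10, interval −0.32 to 0.14) and SRF (−0.22 ± 0.11, interval −0.48 to 0.04) were not called. The IER5L difference was called with library medians set equal (0.83, adjusted p = 0.0195), with quantile normalization (0.77, adjusted p = 0.0311) and without 20 µM (0.95, adjusted p = 0.000913). In both scalings T5 was thus higher for 5 members, against 37.6% of all genes with medians set equal and 34.2% with quantile normalization. The SRF difference was called without 0.5 µM (−0.34, adjusted p = 0.00277).

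T4 was higher than CPT for the same 4 members, EGR1, ARC, IER2 and EGR2, and lower for NR4A1, where 28.3% of all genes were called higher and 36.9% lower. The difference was 1.60 ± 0.30 for EGR1 (limma, adjusted p = 0.00378), 1.04 ± 0.32 for ARC (adjusted p = 0.0266), 0.55 ± 0.16 for IER2 (adjusted p = 0.0198) and 0.33 ± 0.11 for EGR2 (adjusted p = 0.0291). ARC, IER2 and EGR2 were higher with T4 at 4 of 5 doses, with CPT the higher at 0.5 µM. The ARC and EGR2 calls were each lost without 2, 5, 10 or 20 µM, at differences of 0.85 to 1.08 for ARC and 0.28 to 0.34 for EGR2, and the IER2 call without 10 µM (0.46). The ARC and EGR2 calls were also lost without the filter, and that of EGR2 with a pseudocount of 0.1. NR4A1 was lower with T4, by −1.50 ± 0.10 (adjusted p = 0.000385), and EGR3 by −0.61 ± 0.09 in the fit to 20739 genes (adjusted p = 0.00536), where 26.3% of genes were called lower. IER5L (0.02 ± 0.32, interval −0.74 to 0.78), IER5 (−0.26 ± 0.11, interval −0.53 to 0.01) and SRF (−0.18 ± 0.10, interval −0.41 to 0.06) were not called. SRF was called without 0.5 µM (−0.28, adjusted p = 0.00962), and IER5 with the spread taken from all 15 treated libraries (adjusted p = 0.0411). The comparisons with CPT share the CPT libraries, so they are not independent of each other.

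**Figure D4:**
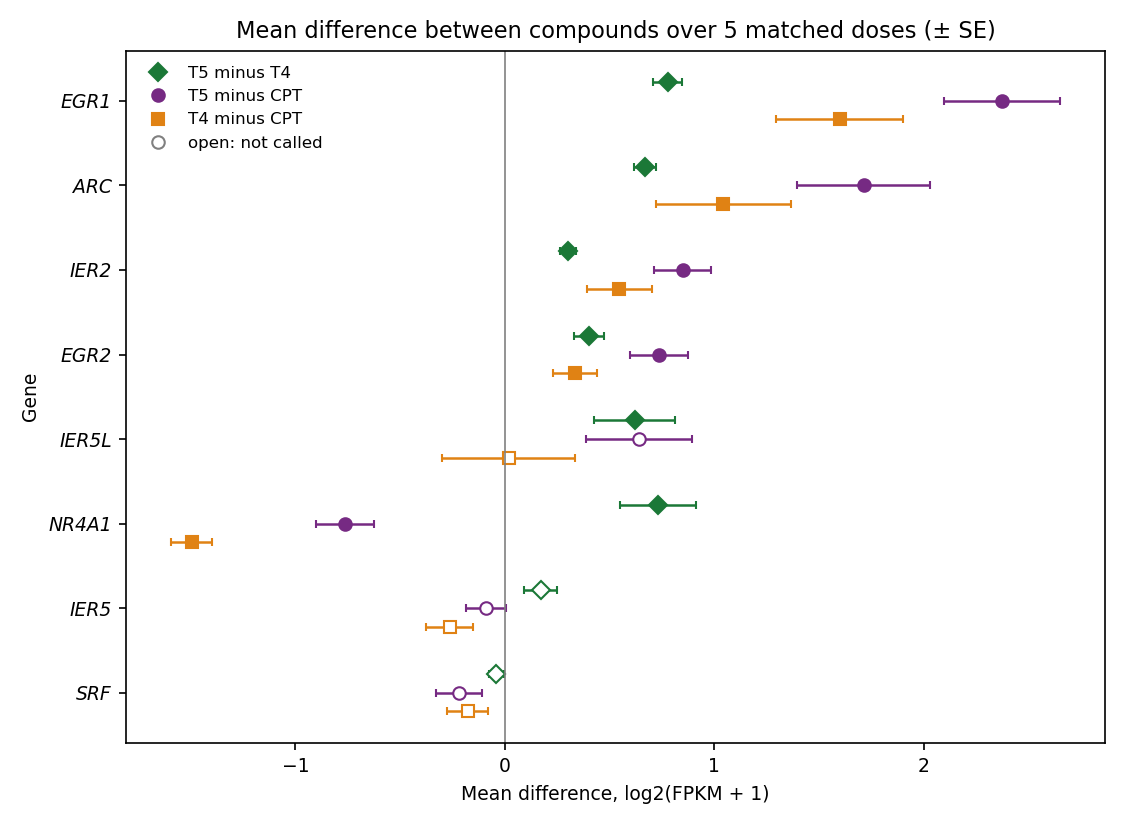
Difference in log2(FPKM + 1) at matched doses for the tested members, with standard errors, for T5 minus T4, T5 minus CPT and T4 minus CPT, open symbols being not called. NR4A1 lies above 0 for T5 minus T4 and below 0 in both comparisons with CPT, whereas EGR1 and ARC lie above 0 in all 3.

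Over the 16 libraries the members fell into a set around EGR1 and a pair of NR4A1 and EGR3. These correlations describe 16 libraries that share a DMSO library and 3 dose series, and they carry no p. Pearson's r with EGR1 was 0.97 for ARC, 0.95 for EGR2 and 0.95 for IER2, with Spearman's rho of 0.98, 0.94 and 0.94. NR4A1 and EGR3 had an r of 0.91 and a rho of 0.93. EGR1 and NR4A1 had an r of only 0.29 over all 16 libraries, but of 0.99 within T5, 0.88 within T4 and 0.84 within CPT, each with DMSO. NR4A1 and EGR3 had an r of 0.80 within T5, 0.96 within T4 and 0.98 within CPT. For EGR1 and ARC these values were 0.98, 0.98 and 0.84. The grouping thus describes all 16 libraries together and not each compound, as NR4A1 was nearer to EGR1 than to EGR3 within T5. IER5 and IER5L had an r of 0.83, which was 0.67 without DMSO and 0.5 µM T4, the libraries farthest from the median of IER5. SRF had an r of −0.09 with EGR1, and of 0.34 within T5, 0.36 within T4 and 0.93 within CPT.

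**Figure D5:**
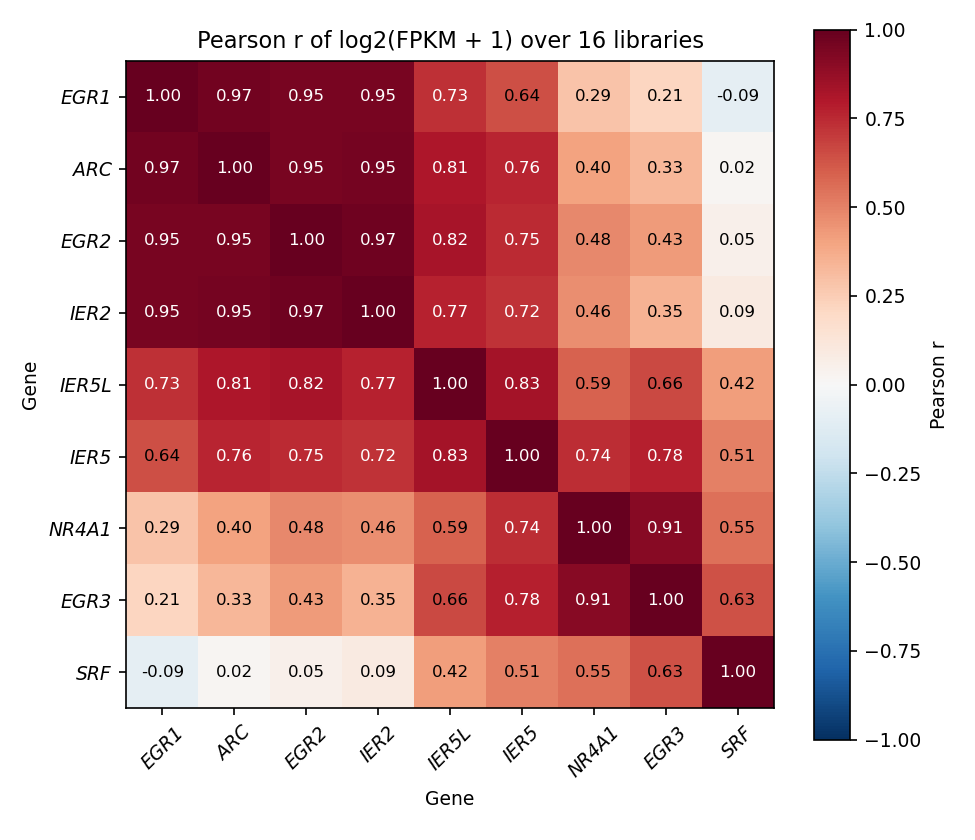
Pearson's r of log2(FPKM + 1) between 9 members over 16 libraries, with IER3 left out because it is listed at 0. EGR1, ARC, EGR2 and IER2 form a block with r of 0.949 to 0.971, and NR4A1 and EGR3 pair at 0.91.

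The genes most like each member were sought among 6632 genes with a mean of at least 1 FPKM and a range of at least 1 on the log2 scale. EGR1 was nearest to FOS (r = 0.98), KLF6 (0.98) and PIM1 (0.97), and EGR2 to FOS, JUN and GADD45B. ARC was nearest to FOS (0.99), MIDN and RPL22L1, and IER2 to FOS (0.98), ZFP36 and JUNB. For NR4A1 the nearest were GPR3 (0.97), DCXR and MFSD3, and for EGR3 they were PHLDA1 (0.99), TSPYL2 and GSTT2. IER5 was nearest to NME1-NME2, SAT1 and TRIB1, and IER5L to RHOB (0.96), LINC00273 and ANKRD30BL. SRF had less close matches, with EFNA1 at 0.89, SAP25 at 0.87 and RND1 at 0.83.

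Among 25 other immediate early genes, 21 passed the filter, of which 15 rose and 1 fell with T5, 14 rose and 2 fell with T4, and 12 rose and 0 fell with CPT. The medians were 1.38 with T5, 1.32 with T4 and 1.52 with CPT, against −0.29, −0.27 and −0.14 over all tested genes. Of all tested genes, 18.2%, 14.5% and 17.9% were called rising with T5, T4 and CPT, and 34.5%, 32.4% and 25.8% falling. FOS, an AP-1 subunit, rose by 6.92 ± 0.71 with T5, by 6.51 ± 0.46 with T4 and by 3.96 ± 0.45 with CPT, the order seen for EGR1 and ARC. FOSB, its relative, rose by 3.13 ± 0.24 with T5, 3.08 ± 0.25 with T4 and 3.63 ± 0.29 with CPT. JUNB rose by 5.27 ± 0.41, 5.01 ± 0.30 and 4.17 ± 0.46 with T5, T4 and CPT, and ZFP36, which destabilises AU-rich messages, by 3.36 ± 0.18, 2.87 ± 0.24 and 1.93 ± 0.20. The genes that fell, named after their values were seen, were FOSL1 with T5 (−1.04 ± 0.32) and T4 (−1.95 ± 0.19), and PPP1R15A with T4 (−0.69 ± 0.23). The fall of FOSL1 with T5 and that of PPP1R15A with T4 were called in neither other scaling. With library medians set equal 17 rose and 0 fell with T5, 16 rose and 1 fell with T4, and 20 rose and 0 fell with CPT. With quantile normalization 14 rose with each compound, and 1 fell, with T4. The shares of all genes called rising with T5, T4 and CPT were 41.4%, 40.5% and 33.7% with library medians set equal. They were 28.4%, 26.5% and 22.1% with quantile normalization.

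The nearest relatives of the members in that list were below the filter and are given as values. EGR4 was listed at 0 with DMSO and was highest at 20 µM T5, with 3.58 FPKM, against 0.903 FPKM at 20 µM T4 and 1.68 FPKM at 20 µM CPT. At 0.5, 2 and 5 µM it was higher with CPT (0.0707, 0.278 and 0.680 FPKM) than with T5 (0.0316, 0.174 and 0.557 FPKM). CPT was also above T4 at every dose. NR4A2 and NR4A3, the relatives of NR4A1, were highest at 2 µM CPT, with 1.65 and 1.88 FPKM, against 0.124 and 0.279 FPKM with DMSO. At 2 µM, NR4A2 had 1.25 FPKM with T5 and 1.01 FPKM with T4. NR4A3 had 0.663 FPKM with T5 and 0.551 FPKM with T4 at that dose. Both genes were highest with CPT at every dose, as NR4A1 was, with NR4A2 closest at 5 µM (1.33 FPKM with CPT and 1.24 FPKM with T5).

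Genes that act with the members were tested one by one and counted by list. Of all tested genes, 34.5%, 32.4% and 25.8% were called falling with T5, T4 and CPT, and 18.2%, 14.5% and 17.9% rising. With library medians set equal 18.8%, 17.4% and 15.5% fell, and 41.4%, 40.5% and 33.7% rose. With quantile normalization 22.1%, 19.8% and 18% fell, and 28.4%, 26.5% and 22.1% rose. Of 4 listed corepressors of EGR proteins and partners of NR4A1, 3 were tested, 2 fell with T5, 2 with T4 and 1 with CPT. In each of the other scalings 1 rose and 1 fell with T5 and with T4, and 1 fell with CPT. NAB2, a corepressor that EGR proteins induce, fell by 1.35 on the log2 scale with T5 (SE 0.23) and by 1.29 with T4 (SE 0.17), and had −0.16 ± 0.14 with CPT. RXRA, a partner of NR4A1, fell with all 3 compounds, by 1.23 with T5, 1.14 with T4 and 1.42 with CPT, though its falls with T5 and T4 were not called with either other scaling. NAB1 was called with none of the compounds, at −0.14 ± 0.22 with T5, −0.14 ± 0.18 with T4 and −0.72 ± 0.32 with CPT. Its direction turned with library medians set equal, where it rose by 0.54 with T5 (adjusted p = 0.023) and 0.51 with T4 (adjusted p = 0.0261), and with quantile normalization, by 0.43 (adjusted p = 0.0487) and 0.44 (adjusted p = 0.0456). The medians of the 3 genes were −1.23 with T5, −1.14 with T4 and −0.72 with CPT, against −0.29, −0.27 and −0.14 over all tested genes.

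Of 6 listed SRF cofactors 5 were tested, of which 3 fell with T5, 3 with T4 and 2 with CPT, and 1 rose with CPT. MKL1, an actin-sensing cofactor, had 1.98 FPKM with T5, 2.18 FPKM with T4 and 1.45 FPKM with CPT at 20 µM, and 12.6 FPKM with DMSO. It fell by 2.60 with T5 (SE 0.43), 2.67 with T4 (SE 0.39) and 2.42 with CPT (SE 0.59), and stayed called in both other scalings. MKL2 fell by 1.88, 1.61 and 1.90 with T5, T4 and CPT, the last not called in either other scaling, and ELK4, an ETS cofactor, by 0.85 with T5 and 0.69 with T4. The ELK4 falls were called in neither other scaling, at −0.18 with T5 and −0.04 with T4 with library medians set equal, and −0.09 and 0.03 with quantile normalization. ELK1, the cofactor that ERK phosphorylates, rose by 0.58 ± 0.11 with CPT and had 0.50 ± 0.32 with T5 and 0.32 ± 0.29 with T4, both of which were called with library medians set equal. The medians were −0.85 with T5, −0.69 with T4 and −0.83 with CPT, against −0.29, −0.27 and −0.14 over all tested genes. Of all tested genes, 34.5%, 32.4% and 25.8% were called falling with T5, T4 and CPT. With library medians set equal 2 rose and 2 fell with T5 and with T4, and 2 rose and 1 fell with CPT. With quantile normalization 0 rose and 2 fell with T5 and with T4, and 1 rose and 1 fell with CPT. The shares of all genes falling with T5, T4 and CPT were 18.8%, 17.4% and 15.5% with library medians set equal, and 41.4%, 40.5% and 33.7% rose. They were 22.1%, 19.8% and 18% falling, and 28.4%, 26.5% and 22.1% rising, with quantile normalization.

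Of 12 actin and muscle-type targets of SRF, 5 rose and 0 fell with T5, 4 rose and 1 fell with T4, and 6 rose and 0 fell with CPT. The medians were 0.50, 0.22 and 0.44 with T5, T4 and CPT, against −0.29, −0.27 and −0.14 over all tested genes. Of all tested genes, 18.2%, 14.5% and 17.9% were called rising with T5, T4 and CPT. ACTB rose by 0.66 ± 0.23 with T5, 0.53 ± 0.16 with T4 and 0.45 ± 0.10 with CPT, and TPM1 by 0.74 ± 0.17, 0.66 ± 0.17 and 0.65 ± 0.15. TPM2 rose by 0.74 ± 0.13, 0.59 ± 0.13 and 0.71 ± 0.17, and FLNA by 0.67 ± 0.17, 0.50 ± 0.14 and 0.70 ± 0.09, each in the order T5, T4 and CPT. None of these 4 genes was called rising with quantile normalization, in which ACTB had −0.84 with T5, 0.80 with T4 and −0.62 with CPT. In that scaling the list had 1 gene rising and 2 falling with T5, 1 and 3 with T4, and 0 and 1 with CPT. Of all genes, 28.4%, 26.5% and 22.1% then rose with T5, T4 and CPT, and 22.1%, 19.8% and 18% fell. With library medians set equal 10 rose with T5, 11 with T4 and 8 with CPT, and 0 fell with any compound. Of all genes, 41.4%, 40.5% and 33.7% rose in that scaling with T5, T4 and CPT, and 18.8%, 17.4% and 15.5% fell.

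Of 15 genes of the ERK cascade towards SRF and CREB 13 were tested, of which 3 rose and 6 fell with T5, 1 rose and 7 fell with T4, and 2 rose and 5 fell with CPT. The medians were −0.65 with T5, −0.57 with T4 and −0.96 with CPT, against −0.29, −0.27 and −0.14 over all tested genes. Of all tested genes, 34.5%, 32.4% and 25.8% were called falling with T5, T4 and CPT, and 18.2%, 14.5% and 17.9% rising. CREBBP and EP300, the acetyltransferases that CREB recruits, fell with all 3 compounds, CREBBP by 2.12, 2.05 and 2.56 and EP300 by 2.41, 1.93 and 2.37 with T5, T4 and CPT. CREB1 fell by 1.69 with T5, 1.65 with T4 and 1.69 with CPT, and RPS6KA1, a kinase below ERK, by 1.67, 1.07 and 1.14. With library medians set equal, 4 rose and 3 fell with T5, 4 rose and 2 fell with T4, and 3 rose and 4 fell with CPT. Of all genes, 41.4%, 40.5% and 33.7% then rose with T5, T4 and CPT, and 18.8%, 17.4% and 15.5% fell. With quantile normalization 3 rose and 4 fell with T5, 1 rose and 2 fell with T4, and 2 rose and 4 fell with CPT. The shares of all genes were then 28.4%, 26.5% and 22.1% rising, and 22.1%, 19.8% and 18% falling. CREB1 was called only with CPT in both of these scalings, and the fall of RPS6KA1 with T4 in neither. With quantile normalization the fall of EP300 with T4 (−1.27, adjusted p = 0.0569) and of RPS6KA1 with CPT (−0.73, adjusted p = 0.0617) were not called.

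The members also share short gene bodies. In the GENCODE v29 annotation of GRCh38, ARC spans 3429 bases, EGR1 3826, IER5 4188, IER2 4494, IER5L 2711, EGR3 5644 and SRF 10209, against a median of 31331.5 bases over 10036 tested genes with a value. NR4A1, at 36676 bases, and EGR2, at 107905 bases, were the exceptions, counted over all their annotated transcripts. IER3 spans 1356 bases. The part of gene length in the results was not tested.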

How the data were processed

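RNA sequencing values came from 1 matrix of gene-level FPKM that the authors deposited, with 1 column per library. The submitters' processing notes name GSNAP, Cufflinks, hg19 and GRCh37, without roles, versions or order. Annotation, strandedness and any filter were not given in the sources used here, so reads of overlapping antisense genes could not be separated. Whole counts were not used, and precision rests on the libraries alone.

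From the matrix, 2 inner header lines, 1 incomplete line and 220 repeated lines with identical values were left out, leaving 25270 genes, of which 4531 were at 0 in every library. Genes with a mean of at least 1 FPKM (10600) entered the fits on log2(FPKM + 1), where the pseudocount of 1 understates changes of low genes. Dose entered as log2(1 + dose/0.5 µM). Trends (6 libraries), differences at matched doses with dose as a block (10 libraries) and slope differences were fitted with limma 3.58.1 in R 4.3.3, with a trended prior variance and Benjamini-Hochberg adjustment over all genes of each fit. No p was adjusted over the 3 pairs of compounds. Errors are standard errors of the fit. With 1 library per condition, p-values measure the scatter around the fit and not the spread between cultures. The labels give no batch.

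The named genes were all 10 members, the 3 genes with the highest Pearson correlation to each member, and the 4 genes of each list with the largest fitted change. The members and lists were chosen with earlier results of these data known. The lists were immediate early genes outside the members, EGR corepressors and NR4A partners, SRF cofactors, actin and muscle-type SRF targets, the ERK cascade, and cell type markers. Alternatives were another pseudocount of 0.1, no filter, median centring, quantile normalization, linear or stepwise dose, treated libraries alone, a fit to all 15 treated libraries, own intercepts, and leaving out each library or dose. The fits were tested on simulated data. Promoters came from RefSeq on GRCh38.p14 and were matched by symbol. Tables were made with Python 3.11.15, pandas 2.3.3 and numpy 2.4.6, and figures with matplotlib 3.10.9.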

Additional observations from a re-analysis of the deposited data

Results flagged for a closer look

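The slope on dose differed between compounds for some members, by limma's test of the difference in slope with DMSO as the common start. It is given as the difference in fitted change between 0 and 20 µM on the log2 scale. Between T5 and CPT the difference was 3.59 for EGR1 (SE 0.42, limma adjusted p = 8.2e-05), 2.69 for ARC (adjusted p = 0.00187), 1.34 for IER2 (adjusted p = 5.9e-05), 1.03 for EGR2 (adjusted p = 0.00674) and −0.41 for SRF (adjusted p = 0.0463). Between T4 and CPT it was 2.61 for EGR1 (SE 0.31, adjusted p = 0.00010), 1.83 for ARC (adjusted p = 0.00552), 0.97 for IER2 (adjusted p = 0.000149), 0.54 for EGR2 (adjusted p = 0.0157) and −2.07 for NR4A1 (SE 0.38, adjusted p = 0.00164). EGR1 was higher with T5 and with T4 than with CPT at 5 of 5 doses, and NR4A1 was lower with T4 at 5 of 5. SRF was higher with T5 than with CPT at 1 of 5 doses. The EGR2 difference between T4 and CPT was not called with a pseudocount of 0.1, nor the SRF difference between T5 and CPT with quantile normalization. With an intercept for each compound and no DMSO, the IER2 differences alone stayed called. The others ran between 0.28 (EGR2) and 2.37 (EGR1) for T5 minus CPT, with SRF at −0.70, and between 0.51 (EGR2) and 2.69 (EGR1) for T4 minus CPT, with NR4A1 at −0.44 (adjusted p = 0.73).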

How the results depend on the processing

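Of 624 alternative values for single members, 502 kept their direction and their side of the threshold, 93 lost the call, 12 gained one and 17 changed sign. These totals count the trend fit without DMSO also as the fit to treated libraries alone. Counts of rising members became 0 (T5), 1 (T4) and 0 (CPT) with a linear dose, where 0.217%, 0.934% and 0% of all genes were called. For CPT they ran between 0, without 10 µM CPT (0.00943% of all genes), and 8, without 2 µM (18.9%) or 20 µM (15.3%), when libraries were left out. T5 minus T4 had 1 higher member with all 15 treated libraries (1.08% of genes). T4 minus CPT had 2 higher members without the filter (17.1%), and 1 (without 10 µM, 24.4%) to 4 (without 0.5 µM, 28.2%) when doses were left out. It had 2 lower members with all 15 libraries (41.3%), and 1 (29.4% to 34.8%) to 2 (without 0.5 µM, 36.1%) when doses were left out. T5 minus CPT had 1 (31.3% to 38.9%) to 2 (without 0.5 µM, 35.4%) lower members when doses were left out. Slope differences with own intercepts had 1 higher (1.16%) and 0 lower (6.61%) members for T4 minus CPT, and 1 higher (2.54%) and 0 lower (6.19%) for T5 minus CPT, which also had 0 lower with quantile normalization (20.3%). The cause of these moves was not tested.

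The SRF trend became −0.17 with T4 and −0.20 with T5 for treated libraries alone, which is also the fit without DMSO. Over single libraries left out it ran from −0.17 to 0.28 with T4 and −0.20 to 0.25 with T5. With median centring the SRF difference T5 minus T4 became 0.061 and the IER5 difference T5 minus CPT 0.10. The IER5L difference T4 minus CPT ran from −0.23, without 2 µM, to 0.30, without 20 µM, and was −0.10 without 0.5 µM and −0.08 without 5 µM. With own intercepts, slope differences changed sign for T5 minus T4 in EGR1 (−0.32), EGR2 (−0.22), IER2 (−0.17), IER5 (−0.68) and ARC (−0.24), for T4 minus CPT in IER5 (0.42), and for T5 minus CPT in NR4A1 (1.13) and IER5L (−1.48). No paired analysis was possible because the labels give no replicate numbers; this is apart from the block on dose, which pairs the compounds in the comparisons at matched doses. Depth in FPKM is known only relative to DMSO, so no interval for single values could be given.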
